A study of Gallus gallus with 12 samples.

Results

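The genes described here are 33 actin cytoskeleton genes of HTC cells, a chicken macrophage cell line, out of 2253 genes named on a cDNA array. They were chosen by symbol, with earlier results of these data known. The rule took genes beginning with ARPC, ACTR, ACTN, MYL, MYO and a digit, CAPZ, TPM and a digit, TMSB, CFL, PFN, CORO, WAS or ANXA, together with ACTB, ACTG1 and ABI1. All 33 had a value on all 12 arrays, as did 2238 of the named genes. No gene beginning with TMSB or WAS was found, profilin was represented by PFN2 only, and the one CFL match was CFLAR, which encodes a regulator of caspase-8 and is not a cofilin. The set held 2 actins, 9 genes of the Arp2/3 complex, 8 genes grouped as myosins, 5 annexins, and 5 genes for proteins that cap, bind or cross-link filaments. The myosin group counts MYLK3, which encodes a myosin light chain kinase and not a myosin. ABI1, PFN2, the dynactin gene ACTR1A and CFLAR were single representatives.

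Actin filaments push the membrane of a macrophage forward and close it around a particle. The Arp2/3 complex starts a new filament as a branch on an old one when a WASP family protein activates it, capping protein stops growth at the fast end, and profilin supplies monomers. Myosins pull on filaments or carry membranes along them, and annexins bind acidic membrane lipids in the presence of calcium, some of them together with actin.

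The study asked how the macrophage line responds to 3 species of Eimeria, the protozoa that cause coccidiosis in poultry. PolyA RNA came from unstimulated HTC cells and from HTC cells given 1 of the species E. tenella, E. maxima and E. acervulina as stimulus for 4, 18 or 48 h. The 4 arrays of a species formed a loop in which each RNA met 2 others, once in Alexa555 and once in Alexa647, so every species and time is 1 RNA sample of 1 cell line. Unstimulated cells of a matching age are not named among the samples, so the effect of the parasite and that of further hours in culture cannot be told apart.

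Values below are log2 changes from the unstimulated RNA of that species' loop unless another pair of times is named. The labels do not say which dye is the numerator. The likely direction used is Alexa555 over Alexa647, since every title names the Alexa555 sample first. That basis is weak, an earlier plan for these data had the opposite, and under the other reading every sign turns, and higher and lower swap, while sizes, counts and tests stay. The base of the logarithm was taken as 2. Replication at a time came from the 3 species, so mean ± SD is over n = 3 species, and p-values rest on the spread between these 12 RNA samples alone, which the labels do not call separate cultures. The unstimulated RNA has one name in all loops. If it was 1 RNA, the p-values against it are too small, while in comparisons between stimulated times of a loop its level cancels. Ratios hold no level of a gene, so the presence of macrophage markers could not be checked.

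The array limited precision through its spots and its 2 readings per RNA. The 33 genes were carried by 57 clones of 3 spots each, and the spots of a clone on one array had a median SD of 0.11. Set against array error alone, a change of 1 species had a median standard error of 0.11 at 4 and 48 h and of 0.12 at 18 h, where no array compared the RNA directly with the unstimulated one. The array sign most in doubt was that of the second array of the E. maxima loop, on which 48 h met 18 h. The ratios around a loop should sum to a dye effect. The spread of that sum over features (median absolute deviation, scaled) was 0.69 as titled and 0.57 with this array turned in sign. Dye effects differ between genes, at 0.46 for MYLK3 and -0.24 for MYO1G, and enter the sum less once an array is turned. A smaller spread thus does not show by itself that a sign is wrong. Turning the third array of that loop, on which 18 h met 4 h, gave 0.66, also below the spread as titled. That turn was not run as an alternative. Turning the first or the fourth gave 1.07 and 0.80. In the loops of E. tenella and E. acervulina the signs as titled gave the smallest spread, 0.55 and 0.54. Calls that do not hold with the second E. maxima array turned are named.

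**Figure D1:**
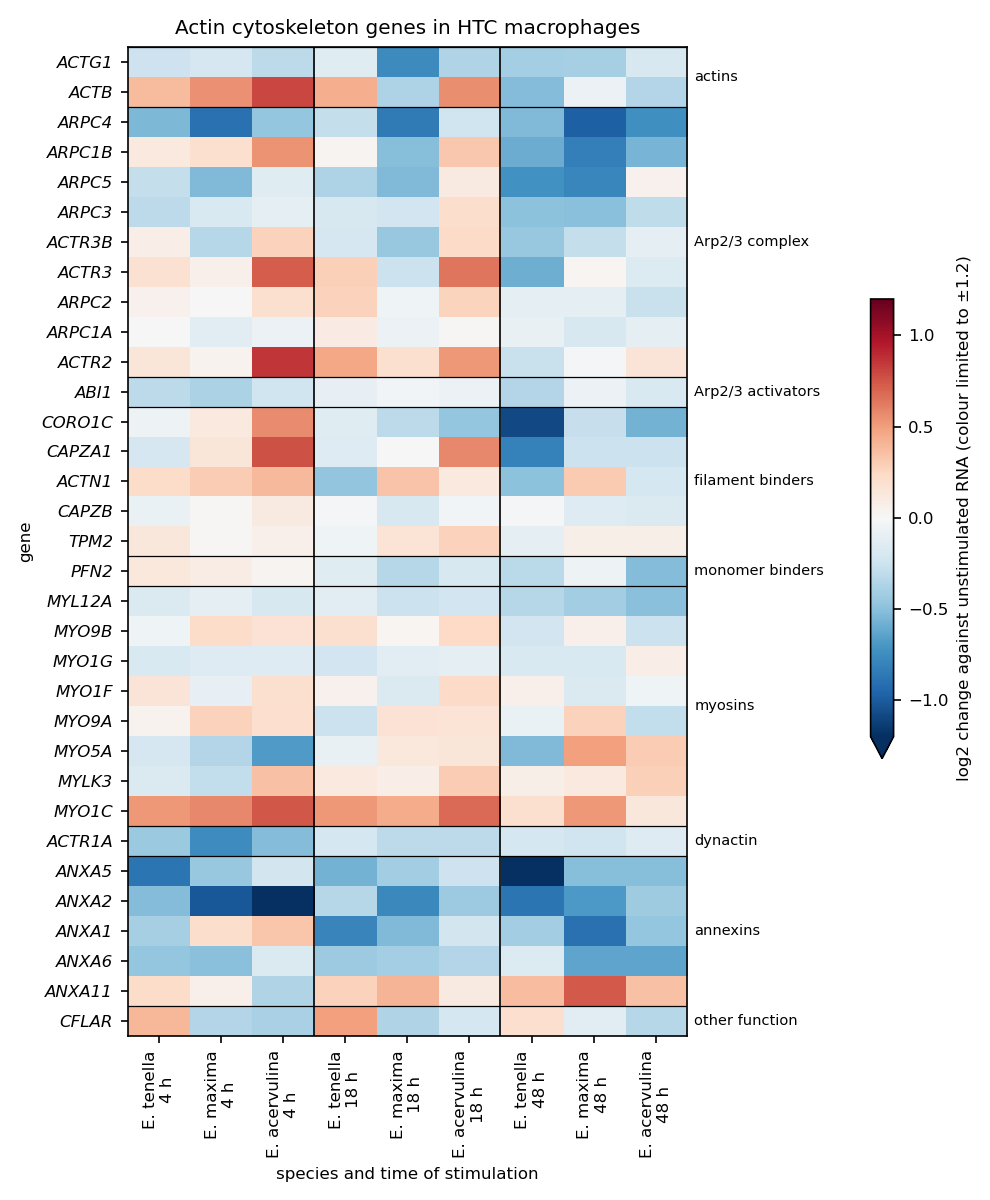
Log2 change of the 33 genes (rows, grouped by role and ordered within a role by the mean at 48 h) against the unstimulated RNA, in 9 columns for 3 species at 4, 18 and 48 h. ARPC4, ANXA2, ANXA5 and ANXA6 are blue in all 9 columns and MYO1C is red in all 9, while ACTB, ARPC1B and CAPZA1 are mostly red at 4 h and blue at 48 h.

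Over all comparisons of times, 10 of the 33 genes passed at least once, beside 18.9% of all features. At 4 h 4 of the 33 genes passed the threshold, an adjusted p under 0.05 over all 3700 features tested (limma with Benjamini-Hochberg adjustment), where 10.4% of all features passed, 4.51% higher and 5.89% lower. ANXA2, ARPC4 and ACTR1A fell and MYO1C rose. The median over the 33 genes was 0.005, against -0.03 over all features, and 16 had a negative mean, beside 54.1% of all features. At 48 h 3 genes fell, ARPC4, ANXA5 and MYL12A, none rose, and 3.59% of all features passed, 1.73% higher and 1.86% lower. The median had then moved to -0.20, against -0.03 over all features, and 28 of 33 genes had a negative mean, where 54.7% of all features had one. In all 3 species 19 genes lay below 0 and 3 above, beside 27.3% and 19.2% of all features.

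At 18 h limma called 0 of the 33 genes, with 9 at an unadjusted p under 0.05, and called 1.62% of all features, with 26.7% at an unadjusted p under 0.05. The median was -0.05. For the mean of the 3 stimulated times 7 genes passed, beside 10.5% of all features, 4.16% higher and 6.3% lower: ARPC4, ANXA2, ANXA5, ANXA6, MYL12A and ACTR1A fell and MYO1C rose. Where 3 values follow each other they stand for E. tenella, then E. maxima, then E. acervulina. At 4 h the medians of the 33 genes by species were -0.06, -0.10 and 0.06. At 18 h they were -0.13, -0.23 and 0.11. At 48 h they were -0.35, -0.17 and -0.21. The 48 h change was thus below 0 for most genes in every species, 28, 24 and 25 of the 33, beside 1887, 1925 and 2239 of all 3700 features. Leaving out E. tenella left 1 call at 4 h (76 over all features) and 0 at 48 h, and leaving out E. maxima or E. acervulina left 0 at both times. Leaving out any one species also left 0 calls for the mean of the times. Over all features these fits made at most 4 calls at 48 h or for the mean, and 1 and 0 at 4 h without E. maxima and without E. acervulina. With the second E. maxima array turned in sign the 48 h calls were 0 (ARPC4 and ANXA5 at an adjusted p of 0.072, MYL12A at 0.127), MYL12A was lost for the mean of the times, and MYO1C passed at 18 h (limma, adjusted p = 0.0197). The calls over all features then also moved, from 133 to 10 at 48 h and from 60 to 402 at 18 h.

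Both cytoplasmic actins are measured. ACTB, which encodes beta-actin, stood at 0.38, 0.55 and 0.80 at 4 h, at 0.43, -0.37 and 0.56 at 18 h, and at -0.52, -0.07 and -0.35 at 48 h. Every 48 h value lay below every 4 h value, while the 18 h values overlapped both. No change of ACTB against the unstimulated RNA passed, with means of 0.57 ± 0.21, 0.21 ± 0.51 and -0.31 ± 0.23 (limma, adjusted p = 0.12, 0.576 and 0.399). ACTG1, which encodes gamma-actin, was below 0 in all 9 samples, at -0.25 ± 0.05, -0.42 ± 0.31 and -0.33 ± 0.12, and did not pass either (limma, adjusted p = 0.265, 0.106 and 0.18). The coding sequences of these genes are similar, so cross-hybridisation of their cDNA probes was not excluded.

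Within the Arp2/3 complex the genes did not move alike. ARPC4, which encodes a core subunit that holds the complex together, fell at 4 and 48 h. It stood at -0.54, -0.89 and -0.47 at 4 h, at -0.28, -0.85 and -0.24 at 18 h, and at -0.53, -0.98 and -0.74 at 48 h. All 9 samples lay below 0, and E. maxima was lowest at each time. The means were -0.63 ± 0.23 at 4 h and -0.75 ± 0.23 at 48 h, the latter 1.68-fold lower than in unstimulated cells (limma, adjusted p = 0.0231 and 0.0258). The mean at 18 h was -0.46 ± 0.34 and did not pass (adjusted p = 0.0832). Its 2 cDNA clones gave -0.70 and -0.56 at 4 h, and at the last time -0.79 and -0.69.

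ARPC1A and ARPC1B encode alternative forms of one subunit. ARPC1B stood at 0.12, 0.19 and 0.54 at 4 h, at 0.03, -0.51 and 0.32 at 18 h, and at -0.59, -0.82 and -0.55 at 48 h. All 3 species were above 0 at 4 h and below it at 48 h, when the mean of -0.66 ± 0.14 missed the threshold by little (limma, adjusted p = 0.0514, against 0.256 at 4 h). ARPC1A lay between -0.19 and 0.10 in all 9 samples, with means of -0.07, 0.01 and -0.13. The difference between the 2 forms was not tested.

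The remaining genes of the complex gave no call. ARPC5, a subunit at the edge of the complex, had means of -0.32 ± 0.19, -0.27 ± 0.33 and -0.49 ± 0.46. Its 48 h values of -0.72, -0.78 and 0.05 split E. acervulina from the other species. ARPC3 had means of -0.20, -0.07 and -0.43, with an adjusted p of 0.0632 at 48 h (limma), and ARPC2 of 0.08, 0.16 and -0.16. The genes of the actin-related proteins themselves, ACTR2 and ACTR3, which form the first units of the new filament, stood highest in E. acervulina at 4 h, at 0.86 and 0.73, against 0.15 and 0.18 in E. tenella and 0.05 and 0.06 in E. maxima. ACTR3B, a second Arp3 gene, had means of 0.01, -0.14 and -0.28. All 9 genes had a negative mean at 48 h, with a median of -0.28. That of ACTR2 was nearest 0, at -0.04, with 48 h values of -0.27, -0.01 and 0.15 (limma, adjusted p = 0.893). Its sign thus carries little weight. All 9 means were also negative under each of the 5 alternatives that kept all species. Among these, admitting features with 3 of 4 arrays left the values as they were and could not turn a sign. Without E. tenella the 48 h mean of ACTR2 was positive, since its other values were -0.01 and 0.15. At 4 h 5 of 9 were positive, with a median of 0.005.

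**Figure D2:**
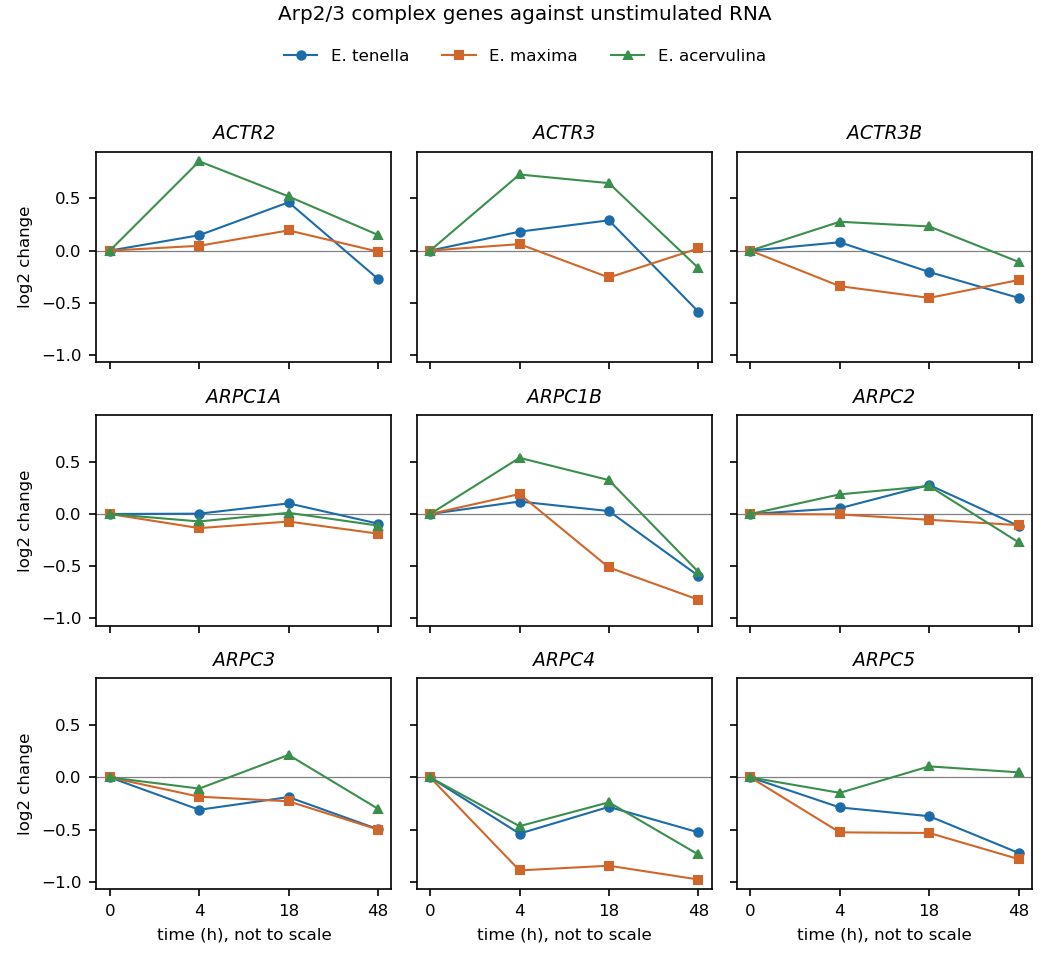
Log2 change against the unstimulated RNA (y axis, shared) at 0, 4, 18 and 48 h (x axis, not to scale) for the 9 Arp2/3 complex genes, with a line for each species. ARPC4 stays below 0 in all 3 species, ARPC1B crosses from above 0 at 4 h to between -0.82 and -0.55 at 48 h, and ARPC1A stays between -0.19 and 0.10.

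ABI1, a subunit of the WAVE complex that activates Arp2/3, was below 0 in all 9 samples. It stood at -0.31, -0.38 and -0.24 at 4 h and at -0.35, -0.07 and -0.19 at 48 h. No call was made (limma, adjusted p = 0.0679 at 4 h and 0.221 at 48 h). PFN2, a profilin that delivers monomers to growing ends, had means of 0.08 ± 0.05, -0.23 ± 0.10 and -0.30 ± 0.23. Its 3 samples at 4 h were all above 0 and the other 6 all below, with no call at any time (limma, adjusted p = 0.684, 0.258 and 0.163).

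None of the 5 genes for filament capping, binding and cross-linking proteins passed against the unstimulated RNA. CORO1C, a coronin that binds filaments and Arp2/3, stood at -0.06, 0.12 and 0.57 at 4 h, at -0.14, -0.32 and -0.46 at 18 h, and at -1.09, -0.28 and -0.57 at 48 h. CAPZA1, the alpha subunit of capping protein, stood at -0.20, 0.14 and 0.77 at 4 h and at -0.81, -0.26 and -0.26 at 48 h. Both genes were highest in E. acervulina at 4 h and lowest in E. tenella at 48 h. CAPZB, the beta subunit, lay between -0.19 and 0.11 in all 9 samples, and the tropomyosin gene TPM2 between -0.12 and 0.28. ACTN1, an alpha-actinin that cross-links filaments, stood at 0.22, 0.30 and 0.39 at 4 h but at -0.49, 0.32 and -0.21 at 48 h (limma, adjusted p = 0.279 and 0.681).

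The 8 genes grouped as myosins, among them the kinase gene MYLK3, held 1 that rose and 1 that fell. MYO1C, a single-headed motor that ties filaments to membranes, stood at 0.52, 0.58 and 0.75 at 4 h, at 0.52, 0.45 and 0.68 at 18 h, and at 0.19, 0.52 and 0.14 at 48 h. All 9 samples lay above 0. The mean at 4 h was 0.61 ± 0.12, a 1.53-fold rise (limma, adjusted p = 0.0224). The later means of 0.55 ± 0.12 and 0.28 ± 0.21 did not pass (adjusted p = 0.0608 and 0.19), but the mean of the 3 times did, at 0.48 (SE 0.10, adjusted p = 0.028).

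MYL12A, a regulatory light chain of non-muscle myosin II, was below 0 in all 9 samples and differed little between species. It stood at -0.18, -0.12 and -0.19 at 4 h, at -0.13, -0.25 and -0.23 at 18 h, and at -0.35, -0.42 and -0.50 at 48 h. Only the 48 h mean of -0.42 ± 0.08 passed (limma, adjusted p = 0.0361, against 0.253 at 4 h and 0.172 at 18 h). The 48 h values lay below all values of the earlier times.

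The other 6 genes of this group gave no call, and their means lay between -0.41 and 0.17. MYO5A, a motor that carries vesicles, held the most negative of these, -0.41 ± 0.24 at 4 h (limma, adjusted p = 0.253), and its 48 h values of -0.53, 0.50 and 0.31 put E. tenella apart from the other species. MYO1G, a class I myosin of blood cells in mammals, lay between -0.23 and 0.08 in all samples, and MYO1F, another, between -0.17 and 0.23. MYO9A and MYO9B, single-headed motors, had means from -0.03 to 0.17 and from -0.14 to 0.15. MYLK3, a myosin light chain kinase gene, had means of -0.04, 0.17 and 0.16.

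The 5 annexins had medians of -0.38, -0.41 and -0.59 at the 3 times, and 4 of the 5 had a negative mean at 48 h. ANXA2, whose protein links membranes to actin as a complex with S100A10, stood at -0.52, -1.02 and -1.60 at 4 h, at -0.35, -0.78 and -0.44 at 18 h, and at -0.88, -0.69 and -0.42 at 48 h. All 9 samples lay below 0. The mean of -1.05 ± 0.54 at 4 h was 2.07-fold lower than in unstimulated cells (limma, adjusted p = 0.0278), and the means of -0.52 ± 0.23 and -0.66 ± 0.23 at the later times did not pass (adjusted p = 0.196 and 0.128). Its 4 h changes in E. maxima and E. acervulina were the only single-species changes among the 33 genes that were at least 2-fold and past array error, a comparison of RNA samples and not of conditions (limma, adjusted p = 0.0226 and 0.0131), where 3.7% and 3.95% of all features were. In the other 7 samples 0 of the 33 genes were (limma), beside 0.919%, 0.568% and 2.46% of all features for E. tenella, 0% and 4.32% for E. maxima at 18 and 48 h, and 0.784% and 0% for E. acervulina at those times.

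ANXA5, which binds phosphatidylserine on dying cells, stood at -0.88, -0.46 and -0.22 at 4 h and at -1.26, -0.51 and -0.52 at 48 h. E. tenella was lowest at each of the 3 times. Against array error the changes of ANXA5 had a standard error of 0.26 at 4 and 48 h and of 0.30 at 18 h. That of E. tenella at 48 h did not pass it (limma, adjusted p = 0.0598). The single arrays that paired E. tenella with unstimulated RNA gave -1.23 at 4 h and -0.91 at 48 h, the reverse order. The 48 h mean was -0.76 ± 0.43 (limma, adjusted p = 0.0338), and the 4 h mean of -0.52 ± 0.33 did not pass (adjusted p = 0.0623). ANXA6, an annexin with a doubled core, stood at -0.46, -0.50 and -0.17 at 4 h, at -0.44, -0.41 and -0.35 at 18 h, and at -0.17, -0.64 and -0.63 at 48 h. All 9 samples lay below 0, and it passed only for the mean of the 3 times, at -0.42 (SE 0.11, limma, adjusted p = 0.0484).

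ANXA1, in mammals a glucocorticoid-induced mediator that limits inflammation, stood at -0.40, 0.21 and 0.33 at 4 h and at -0.41, -0.90 and -0.47 at 48 h (limma, adjusted p = 0.887 and 0.0996). ANXA11, which has a role in vesicle traffic, was the one annexin above 0 at 48 h, at 0.37, 0.73 and 0.35, and gave no call (limma, adjusted p = 0.0775). Its values at 4 h were 0.22, 0.06 and -0.36.

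**Figure D3:**
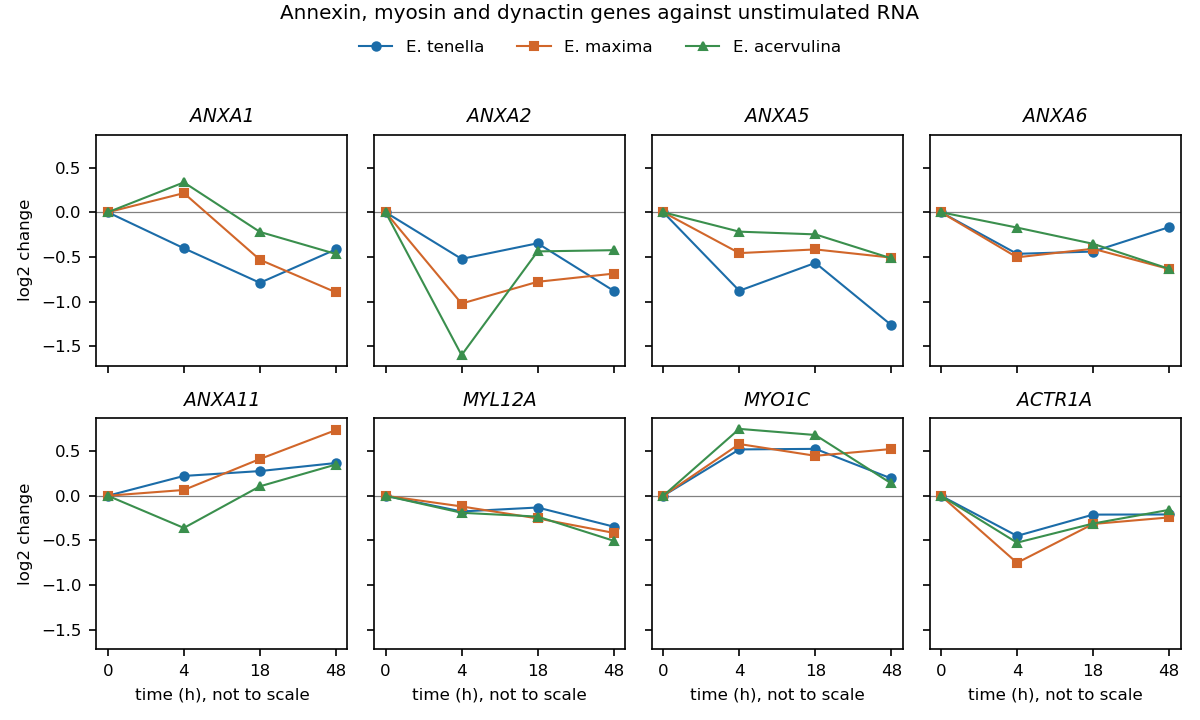
Log2 change against the unstimulated RNA (y axis, shared) at 0, 4, 18 and 48 h (x axis, not to scale) for the 5 annexin genes, MYL12A, MYO1C and ACTR1A, with a line for each species. ANXA2 reaches -1.60 in E. acervulina at 4 h, ANXA5 reaches -1.26 in E. tenella at 48 h, MYO1C is above 0 in all 9 samples, and the 3 lines of MYL12A nearly coincide.

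Of the other genes brought in by their symbols, ACTR1A encodes the actin-like filament of dynactin, the cofactor of the microtubule motor dynein. It stood at -0.45, -0.75 and -0.52 at 4 h, at -0.21, -0.32 and -0.31 at 18 h, and at -0.21, -0.24 and -0.16 at 48 h. All 9 samples lay below 0, and each 4 h value was below all later ones. The 4 h mean of -0.57 ± 0.16 passed (limma, adjusted p = 0.0117), and those of -0.28 ± 0.06 and -0.20 ± 0.04 did not (adjusted p = 0.111 and 0.215).

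Set against 4 h, the 48 h samples were lower for many of these genes. No array paired these times, so the difference averages a path through 18 h and a path through the unstimulated RNA. ARPC1B, ACTB and CORO1C were lower at 48 h than at 4 h and ACTR1A was higher, so 4 of the 33 passed (limma with Benjamini-Hochberg adjustment), where 7.14% of all features passed, 3.3% higher and 3.84% lower. The differences of ARPC1B were -0.71, -1.01 and -1.09, a mean of -0.94 ± 0.20 or 1.92-fold (adjusted p = 0.0171). Those of ACTB were -0.90, -0.62 and -1.15, a mean of -0.89 ± 0.27 or 1.85-fold (adjusted p = 0.0449). Those of CORO1C were -1.02, -0.40 and -1.14, a mean of -0.85 ± 0.40 (adjusted p = 0.0401), and those of ACTR1A were 0.24, 0.51 and 0.37, a mean of 0.37 ± 0.13 (adjusted p = 0.0486). Each of the 4 genes moved one way in all 3 species, as did 19 of the 33 genes, 17 lower and 2 higher, beside 20.5% and 21.3% of all features.

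CAPZA1 and ANXA11 missed the threshold by little in the same comparison, with mean differences of -0.68 ± 0.32 and 0.51 ± 0.32 (limma, adjusted p = 0.0511 and 0.0533). All 9 Arp2/3 genes and all 5 genes of filament binding proteins had a negative mean difference, with medians of -0.24 and -0.43, beside 0.006 over all features. Not all of them were negative in every species. The differences of TPM2 were -0.25, 0.05 and 0.007, so its negative mean came from E. tenella. The median over the 33 genes was -0.21, and 25 were negative, where 49.1% of all features were. The 48 h changes of 9 of the 33 genes lay wholly below their 4 h changes, namely ACTB, ACTR3, ANXA1, ARPC1B, ARPC2, CAPZA1, CORO1C, MYL12A and PFN2, where 10.3% of all features did so. ACTR1A and ANXA11 did the opposite, as did 10.2% of all features. The place of ANXA1 among the 9 hung on E. tenella, with -0.41 at 48 h and -0.40 at 4 h. Each had a standard error of 0.09 against array error. From 4 to 48 h the 2 clones of ANXA1 moved in opposite directions there, from -0.20 to -0.73 and from -0.52 to -0.12. Margins of other genes among the 9 were also small beside array error. The highest 48 h and lowest 4 h values were 0.02 and 0.06 for ACTR3 (standard error 0.09) and -0.26 and -0.20 for CAPZA1 (0.11). They were -0.06 and 0.03 for PFN2 (0.14), -0.11 and -0.004 for ARPC2 (0.10), and -0.28 and -0.06 for CORO1C (0.23). Leaving out E. tenella, E. maxima or E. acervulina left 0 calls, where 0, 11 and 0 of all features passed in place of 264. With the second E. maxima array turned in sign only the call of ACTB was left, and 98 over all features. With features of 3 of 4 arrays admitted to the test, ARPC1B alone kept its call here, and none did at 48 h against unstimulated cells.

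**Figure D4:**
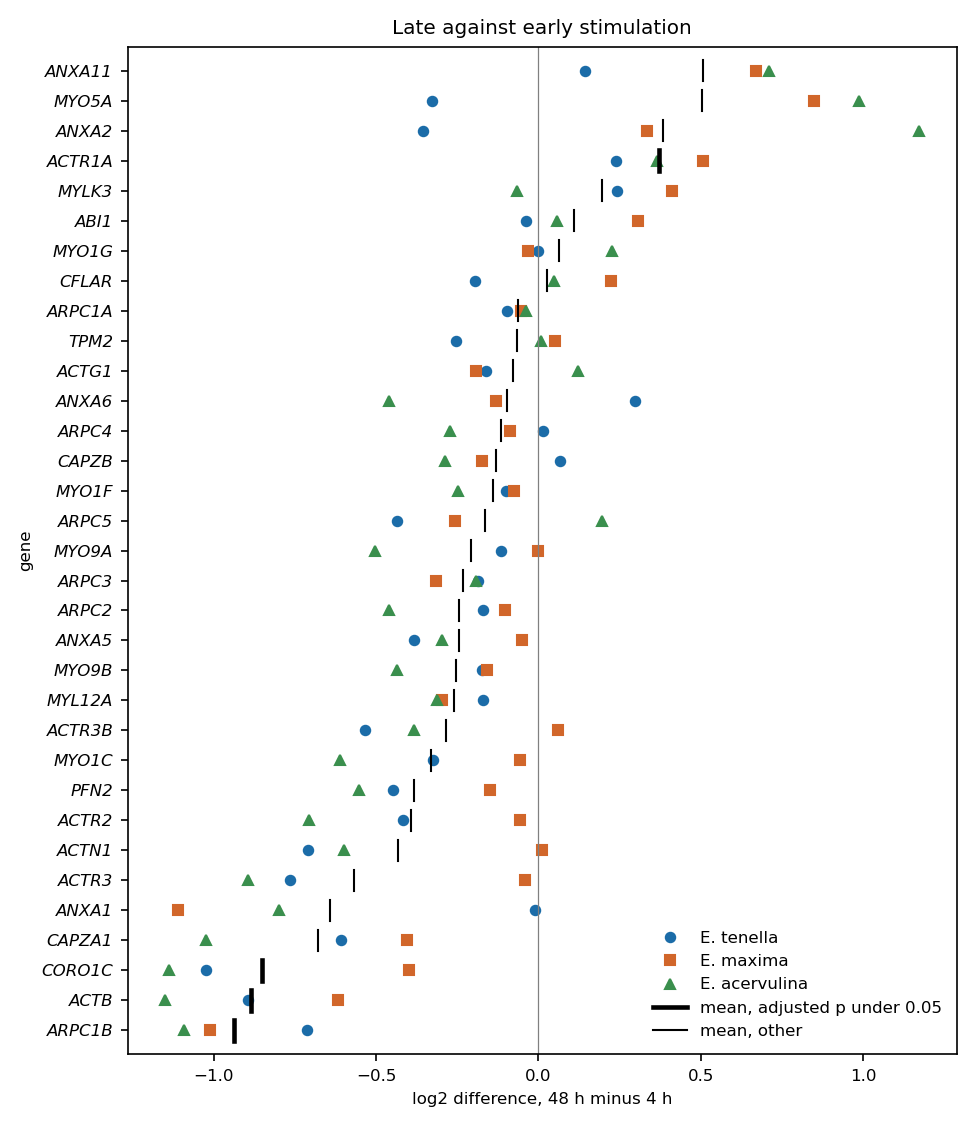
Log2 difference between 48 h and 4 h (x axis) for each of the 33 genes (y axis, ordered by the mean), with a point for each species and a bar for the mean, thick where the adjusted p was under 0.05. ARPC1B, ACTB and CORO1C lie lowest, at -0.94, -0.89 and -0.85, and the thick bar of ACTR1A lies at 0.37.

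Between neighbouring stimulated times limma called 0 of the 33 genes, for 18 against 4 h (5 at an unadjusted p under 0.05, against 13.4% of all features, of which 0.027% were called) and for 48 against 18 h (10 at an unadjusted p under 0.05, against 13.5% of all features, of which 0% were called). From 18 to 48 h 28 of the 33 genes had a negative mean difference, where 54.8% of all features had one. The median of the 33 was -0.14, against -0.03 over all features. All 9 Arp2/3 genes were among the 28, with a median of -0.33.

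The species were compared in the mean change over the 3 times, with the stimulated times of a species as replicates. The error of this fit thus includes change with time, and it measures no spread between cultures of a species. Of the 33 genes 0 passed (limma F test, 1 at an unadjusted p under 0.05, lowest adjusted p = 0.9998), as did 0% of all features, with 1.95% at an unadjusted p under 0.05. The gene with the lowest unadjusted p, 0.0413, was CFLAR, which is no cytoskeletal gene. Its values were 0.40, 0.49 and 0.21 in E. tenella at 4, 18 and 48 h, -0.35, -0.36 and -0.13 in E. maxima, and -0.39, -0.22 and -0.34 in E. acervulina. Samples of E. tenella thus all lay above 0 and the others all below. None of these values passed array error, with standard errors of 0.26 to 0.30 (limma, adjusted p from 0.348 to 0.747). ARPC5 came next, with species means of -0.46, -0.61 and 0.00 and an unadjusted p of 0.158.

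The 3 pairs of species gave no call either (limma, 3 pairs for each gene, adjusted over all features). For ARPC4 the difference of E. maxima minus E. tenella was -0.46, with a 95% interval from -1.13 to 0.21. For CAPZA1 E. acervulina minus E. tenella was 0.75, from -0.51 to 2.01. The intervals of the 33 genes reached a median of 0.75 to either side, so these data do not show that the species act alike. The fit gave the single unstimulated RNA of a loop the spread seen between its stimulated times, which 1 RNA cannot check.

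Of the 33 genes, 18 were carried by more than 1 cDNA clone, and the clones of a gene did not always give the same change. The range between clones had a median of 0.30 at 4 h and 0.18 at 48 h, for means over 3 species. Clones of ARPC1B kept close together, with differences between 48 and 4 h from -1.02 to -0.84 over 3 clones. Those of CORO1C did not, at -1.63, 0.04 and -1.08, so its call rested on 2 of 3 clones. The 2 clones of ACTB gave -1.28 and -0.48 in that comparison. Single-species values of CORO1C also hid a split. Its 3 clones gave 0.43, -1.35 and 0.08 in E. acervulina at 18 h, and -1.22, 1.15 and -0.64 in E. maxima at 48 h.

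Other genes also differed between clones. MYO1C gave 0.95 and 0.21 at 4 h, both above 0, and 0.48 and 0.55 at 18 h. The 2 clones of MYO9B had opposite signs at each time, -0.33 and 0.49 at 4 h, then -0.55 and 0.25 at the last, so its mean near 0 describes neither. ANXA11 gave 0.82, 0.78, -0.10 and 0.52 at 48 h, with 1 of 4 clones apart from the rest. ARPC3 gave -0.45 and 0.06 at 4 h. Clone means had opposite signs for 6 genes at 4 h and for 5 at 48 h. Whether such clones hold other transcripts was not tested.

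**Figure D5:**
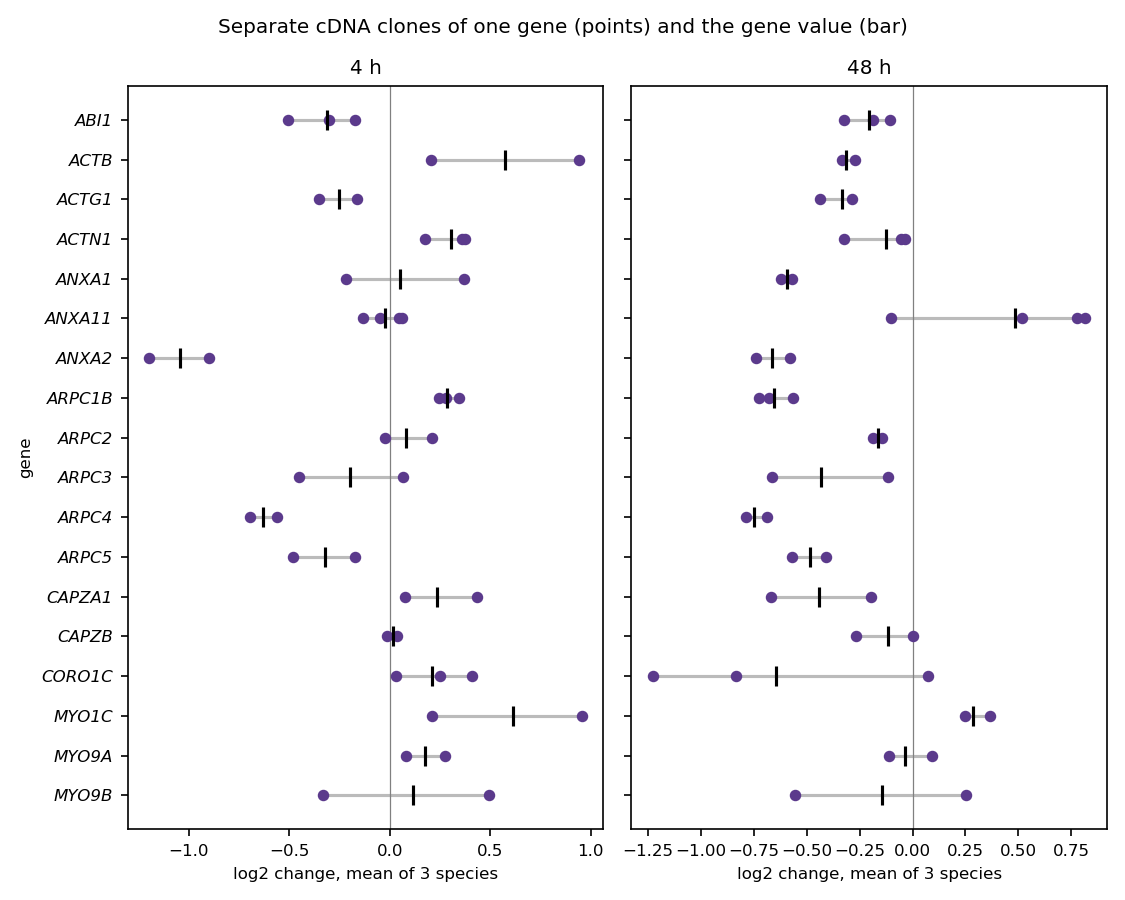
Log2 change against the unstimulated RNA, mean of 3 species, at 4 h (left) and 48 h (right) for the 18 genes with more than 1 clone. Points are clones, grey lines their range and black bars the value of the gene; the widest range is that of CORO1C at 48 h, from -1.23 to 0.07.

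Further genes of the actin pathway were read from lists of textbook members. Of 15 genes tested for severing, bundling and cross-linking proteins, 1 passed at 4 h, 0 at 18 and 48 h, and 1 for 48 against 4 h (limma), where 10.4%, 1.62%, 3.59% and 7.14% of all features passed, shares near these counts. Both calls were SPTBN1, a spectrin of the membrane skeleton. It fell at 4 h, at -0.56 ± 0.28, and was higher at 48 h than at 4 h, by 0.69 (limma, adjusted p = 0.033 and 0.0236). The 15 genes had a median of -0.10 at 4 h and -0.20 at 48 h, and of -0.04 for 48 against 4 h. The 14 genes of adhesion and membrane linkers stood at -0.14 and -0.12, and at 0.07 for 48 against 4 h, with no call in any comparison of times (limma).

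Macrophage markers were read beside these genes. Of 16 listed, 11 were tested: LYZ and TLR2A fell at 4 h, at -0.93 and -0.81, and TLR2A and CYBB at 48 h, at -1.35 and -0.89 (limma, adjusted p = 0.0103, 0.0418, 0.0252 and 0.0393). The 4 h values of TLR2A were -1.22, -1.21 and 0.02, so E. acervulina did not share its fall at that time. LYZ was higher at 48 h than at 4 h, by 0.74 (limma, adjusted p = 0.0236). Over all features 10.4% passed at 4 h, 3.59% at 48 h and 7.14% for 48 against 4 h. At 4 h 7 of the 11 had a positive mean, none past the threshold, the largest that of C1QC at 1.10 ± 1.13 (limma, adjusted p = 0.0725). The medians of the 11 were 0.07 at 4 h, -0.20 at 48 h and -0.49 for 48 against 4 h, beside 0.005, -0.20 and -0.21 for the 33 genes. Of markers of T cells, B cells and thrombocytes 4 genes were tested and 0 passed at any time (limma), beside 10.4%, 1.62% and 3.59% of all features at 4, 18 and 48 h. So few genes do not show that such markers stayed still. CD3D, the 1 T cell gene tested, stood at 0.13 ± 1.08 at 4 h and at -0.92 ± 0.39 at 48 h (limma, adjusted p = 0.845 and 0.18). One of the 2 B cell genes, SH2D6 on the array, matched its list only through a synonym. The part of such shifts in the changes of the actin genes was not tested.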

How the data were processed

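The deposited table holds 1 log ratio per spot and array, read as log2. How the authors corrected background and normalized was not given in the sources used here. Of its 14718 rows, 9066 carried a single symbol in the platform annotation, 3 several and 5649 none. Of the 33 genes, 32 matched a current RefSeq gene record with the same symbol, all but MYO9A.

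Rows of a symbol were averaged, and the 3700 features with values on all 12 arrays were tested. Each loop's 4 ratios were solved for its RNA levels (least squares), which cancels a dye effect that is constant. limma 3.58.1 (R 4.3.3) fitted time with species as a block (6 residual degrees of freedom), species differences with stimulated times as replicates (6), and arrays with a dye term (2). Tests were two-sided, with Benjamini-Hochberg adjustment over all features. The scripts were tested on simulated data. Alternatives covered centring, scaling, missing values, row medians, the sign of 1 array and each species left out.

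Members, gene lists and tests were chosen with earlier results of these data known. One list of signalling genes is not reported here. Values by species are given for genes past the threshold and for most of the 3 largest changes of each role, not always at every time. Some of the latter are given as means only.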

Additional observations from a re-analysis of the deposited data

How the results depend on the processing

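Under 8 alternatives all 18 calls of single genes kept their direction. Leaving out a species could not turn them, since each called result had one sign in every species. Admitting features with 3 of 4 arrays could not either, since it left the values of these genes as they were. Direction was thus open to change only under centring, scaling, row medians and the turned array. ARPC4, ANXA2, ACTR1A and MYO1C at 4 h also stayed past the threshold in the 5 alternatives that kept all species. At 48 h this held for ARPC4 and MYL12A in 3 of 5 and for ANXA5 in 2 of 5, and for 48 against 4 h for ARPC1B and ACTB in 4, CORO1C in 3 and ACTR1A in 1. For the mean of the times ARPC4 stayed past it in 5, and ANXA5, ACTR1A and MYO1C in 4. ANXA6 did so in 3, ANXA2 in 2 and MYL12A in 1. Of 880 values of single genes under the alternatives, called or not, 48 turned sign, none of a called result, with reported values of at most 0.24 in size.

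Counts of called genes changed as follows, and the cause was not tested unless stated. Centring gave 1 at 18 h (MYO1C, 71 over all features) and 5 for the mean of the times, without ANXA2 and MYL12A (adjusted p = 0.0563 and 0.0655). It also took ACTR1A from 48 against 4 h (0.0501), but the count there did not fall, since another gene was called. Scaling gave 4 for the mean (209 over all features), and row medians gave 1 at 18 h (107) and 5 at 48 h (156). At 48 h scaling took ANXA5 (limma, adjusted p = 0.055) and added ARPC1B (0.0401). Admitting features with 3 of 4 arrays left the 33 genes' own values as they were but raised the features tested to 6825, and gave 0 at 48 h (37), 1 for the mean (208) and 1 for 48 against 4 h (154). Turning the second E. maxima array gave 1 at 18 h (402), 0 at 48 h (10) and 1 for 48 against 4 h (98). Leaving out a species left 0 to 1 calls at 4 h (ANXA2 without E. tenella, adjusted p = 0.0489) and 0 to 0 at 48 h, for the mean and for 48 against 4 h. The median of the 33 genes then ranged from -0.030 to 0.03 at 4 h, negative without E. acervulina, from -0.08 to 0.013 at 18 h, positive without E. maxima, and from -0.28 to -0.20 at 48 h. Added after the data were seen, time as a factor in the species fit left 0 calls, took the genes at an unadjusted p under 0.05 from 1 to 0 (CFLAR at 0.0561) and all features from 72 to 113, and put CAPZA1 next (0.0952). Without CFLAR the medians were 0.01, -0.06 and -0.22.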
